A study of Mus musculus with 21 samples.

Results

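Mammary tumors from mice that carry a conditional RhoC transgene were compared by their level of *Erbb2* RNA. Of the 12 RhoC tumors, 4 were selected on *Erbb2* above 900 CPM (reads scaled to a fixed library total after TMM normalization across the 12 tumors) and called high, and 5 were selected on *Erbb2* below 600 CPM and called low. The 3 RhoC tumors between these limits were left out, and the 9 tumors of both groups are 9 of 21 in all. Each RhoC tumor came from an R26(RhoC/+);FloxNeoNeuNT;MMTV-CreNLST mouse. R26(RhoC/+) is 1 copy of wildtype mouse RhoC, followed by eGFP, placed at *Rosa26* behind a stop that Cre removes. FloxNeoNeuNT is an activated Neu cDNA (NeuNT) inserted at the mouse *Erbb2* locus behind a stop flanked by loxP sites, so it is driven by the *Erbb2* promoter once Cre has acted. MMTV-CreNLST drives Cre in the mammary gland, and the share of cells in which it acts was not measured here. The other 9 tumors were controls without the RhoC transgene, of genotype FloxNeoNeuNT;MMTV-CreNLST with or without a Gata4(loxP/+) allele. All mice were virgin females, and the age of each mouse was not given in the sources used here.

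*Erbb2* encodes a receptor tyrosine kinase that binds no ligand of its own and signals as a partner of EGFR, ErbB3 or ErbB4 through the Ras-ERK and PI3K-AKT pathways. The activated form found in NeuNT tumors transforms mammary epithelium, and in human breast cancer the gene is often amplified together with close neighbours such as *GRB7* and *MIEN1*. RhoC is a small GTPase that acts on the actin cytoskeleton through effectors such as the ROCK kinases and formins.

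Both the wildtype and the NeuNT allele are transcribed from the *Erbb2* promoter (ENSMUSG00000062312.5, chromosome 11 of GRCm38, 98412470 to 98437716, forward strand). The counts do not show whether reads of the NeuNT cDNA, whose sequence may differ from mouse *Erbb2*, were counted as *Erbb2*, so every *Erbb2* level here may hold the wildtype RNA alone or both. The promoter is shown because it drives the RNA by which the tumors were selected. It is the RefSeq sequence (GRCm38.p6) of the 250 bases before the RefSeq start of the gene at 98412484, which lies within the gene as bounded in the count annotation, chr11:98412234-98412483, with matches on either strand to the ETS core (GGAA) and the CCAAT box in capitals.

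Erbb2 promoter: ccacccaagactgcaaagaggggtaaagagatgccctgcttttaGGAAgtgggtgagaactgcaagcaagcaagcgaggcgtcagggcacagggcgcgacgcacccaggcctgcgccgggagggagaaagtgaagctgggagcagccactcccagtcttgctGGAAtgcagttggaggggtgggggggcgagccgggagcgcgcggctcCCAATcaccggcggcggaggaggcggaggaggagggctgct

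The ETS core occurred at 206 and 88 bases before the RefSeq start, and the CCAAT box at 41 bases. Of the 32851 promoters in the same table, 93.4% held the ETS core and 33.8% the CCAAT box within a window of this length. The letters GATA, held by 53.6%, and the AP-2 motif GCCNNNGGC, held by 13.7%, had no match in this window. Of 16 regulators listed for this promoter, 14 were tested, 6 with a higher and 8 with a lower mean in the high tumors, none at an unadjusted p under 0.05. The median log2 fold change was -0.10, between -0.29 (without R-14) and 0.20 (without R-6) with each tumor left out and 0.58 with each library's share of reads on genes typed TEC (described further on) as a covariate, where 11 of 14 were higher. *Gata3*, a luminal transcription factor, was at 295 ± 83.3 CPM (SD, n = 4) in the high and 161 ± 139 CPM (SD, n = 5) in the low tumors. *Tfap2c*, which encodes an AP-2 factor, was at 354 ± 200 and 207 ± 132 CPM. Both genes had ranges that overlapped between the groups.

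*Erbb2* was at 1820 CPM in R-7, 1680 in R-16, 1080 in R-1 and 948 in R-14, the high tumors. It was at 539 CPM in R-21, 450 in R-6, 308 in R-10, 254 in R-18 and 254 in R-2, the low tumors. R-14, just inside the high limit, lay close to R-13 at 823 CPM just outside it, and R-21 at 539 CPM was inside the low limit with R-12 at 705 CPM outside. The groups were defined by these levels, so their difference is a description and was not tested. The mean was 1380 ± 434 CPM (SD, n = 4) in the high and 361 ± 128 CPM (SD, n = 5) in the low tumors, a 3.83-fold difference. No RhoC tumor had fewer than 12310 reads on *Erbb2*, so counting error is small beside the spread between tumors.

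**Figure D1:**
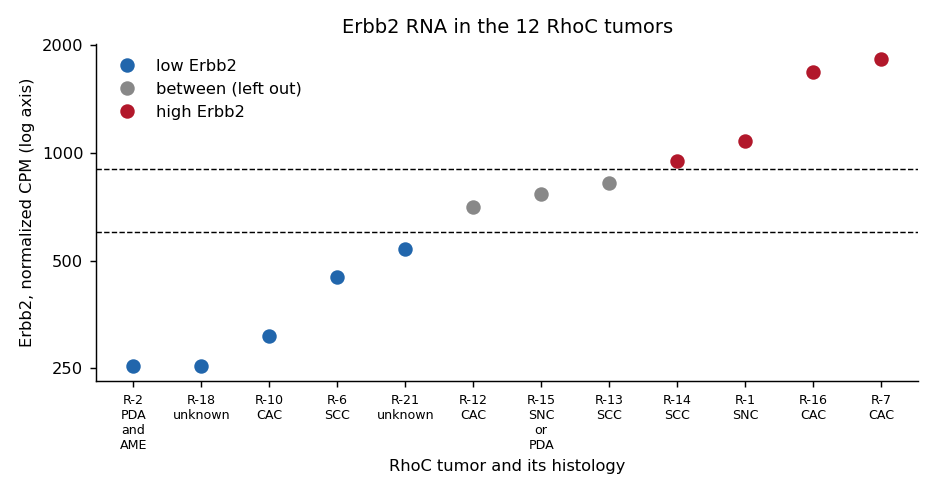
*Erbb2* level in normalized CPM (log axis) of each RhoC tumor, ordered by level, with its histology (PDA is poorly differentiated adenocarcinoma, SNC solid nodular carcinoma, AME adenomyoepithelioma, SCC squamous cell carcinoma and CAC complex adenocarcinoma). Red points are the 4 high tumors, blue points the 5 low tumors and grey points the 3 tumors between, and the dashed lines are the limits of 900 and 600 CPM. The levels run from 254 to 1820 CPM without a wide gap at either limit.

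The groups were not independent sets of mice. R-14 and R-16 came from 1 mouse, which also gave R-13 and R-15 of the tumors between, and R-7 (high) and R-6 (low) came from another. The 4 high tumors thus came from 3 mice, and the 5 low tumors from 5 as far as the labels tell. R-18 has no mouse in its label, and R-21 is labelled with the mouse that the study's list gives for R-20. By histology the high tumors were 1 solid nodular carcinoma (R-1), 2 complex adenocarcinomas (R-7 and R-16) and 1 squamous cell carcinoma (R-14). The low tumors were 1 squamous cell carcinoma (R-6), 1 complex adenocarcinoma (R-10), 1 poorly differentiated adenocarcinoma with adenomyoepithelioma (R-2) and 2 of unknown type (R-18 and R-21).

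The libraries of the groups also differed in composition, and less firmly in depth. Total counts were 57830471 to 85326903 in the high and 47309780 to 65111354 in the low tumors, with a mean log2 difference of 0.313 (2-sided exact permutation test over all labelings, p = 0.0476). With single tumors left out the exact p was 0.0286 without R-21 and 0.0536 to 0.161 without any other tumor. Reads on genes typed TEC, which are transcribed stretches without a verified gene model, made up 0.147% to 0.187% of the counts in the high and 0.206% to 0.474% in the low tumors, with no overlap (same test, p = 0.0317). Protein-coding genes took 97.86% to 98.47% in the high and 96.65% to 97.84% in the low tumors (same test, p = 0.0159). Mitochondrial genes took a similar share (same test, p = 0.825). The part of depth in the results was not tested, and TEC share and group can hardly be told apart because the shares do not overlap.

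No gene separated the high from the low tumors after adjustment for the number of genes tested. With edgeR's quasi-likelihood test, 0 of 19125 genes had a Benjamini-Hochberg adjusted p under 0.05 (0%), and the smallest adjusted p was 0.416. At an unadjusted p under 0.05 there were 302 genes with a higher level in the high tumors (1.58%) and 1202 with a lower level (6.28%). In 131 genes all high tumors lay above all low tumors (0.685%), and in 463 they lay below (2.42%). DESeq2 on the same tumors called 395 genes, 42 higher and 353 lower, whereas limma voom with mouse as a random effect called 0. The values that follow are therefore differences between 9 tumors, in which no gene passed edgeR's adjusted threshold.

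The excess of lower genes lay in gene models without a name. Of the 1202 lower genes, 921 were models named only by Gm, Rik or a similar identifier. The 4631 such models tested had a median log2 fold change of -0.36. Among the other 14494 genes the median was 0, with 271 higher (1.87%) and 281 lower (1.94%) at an unadjusted p under 0.05. In 64 of these (0.442%) the high tumors lay below all low tumors. The share of reads on models was 1.47% to 1.59% in the high and 1.44% to 2.17% in the low tumors, R-6 having the lowest of all 9 (same exact permutation test, p = 0.0635).

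Several genes just beyond the end of *Erbb2* had higher levels in 3 of the 4 high tumors, R-16 being the exception. Of the 25 genes listed around the locus, 21 were tested, 16 had a higher mean in the high tumors, and 8 had an unadjusted p under 0.05, all of them higher. Of all 19125 genes tested, 8821 had a higher mean and 1.58% were higher at that threshold. The median log2 fold change of the neighbours was 0.51, against -0.04 over all genes tested. It was 0.29 with 14 of 21 higher when the TEC share was a covariate, and 0.82 with voom. The list was known from earlier results of these data, so this count is not independent evidence.

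*Mien1* overlaps the end of *Erbb2* and encodes a membrane-anchored protein linked to cell migration. It was at 172 CPM in R-1, 86.6 in R-7, 76.9 in R-14 and 19.3 in R-16, and in the low tumors at 63.7 in R-6, 37.3 in R-21, 25.1 in R-18, 21 in R-2 and 18.1 in R-10. R-1, R-7 and R-14 lay above every low tumor, while R-16 lay among the lowest. The log2 fold change was 1.42 (SE 0.57, unadjusted p = 0.0352, adjusted p = 0.581 from edgeR). It was 0.90 without R-1 and 0.40 with the TEC share as a covariate. Reads on more than 1 gene had been discarded, so reads where *Mien1* overlaps *Erbb2* may be missing from both if strand was not used in counting.

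*Grb7*, an adaptor protein that binds activated ErbB2, lies 8.68 kb beyond the end of *Erbb2*. It was at 173 CPM in R-1, 165 in R-7, 152 in R-14 and 33.8 in R-16. Among low tumors it was at 102 in R-6, 62.9 in R-21, 41.8 in R-18, 37.2 in R-2 and 16.3 in R-10. Again R-16, the tumor with the second highest *Erbb2*, lay within the range of the low tumors. The log2 fold change was 1.33 (SE 0.57, unadjusted p = 0.0442), and 0.29 with the TEC share as a covariate.

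*Ormdl3*, a regulator of sphingolipid synthesis located 144 kb beyond *Erbb2*, was at 559 CPM in R-7, 369 in R-1, 128 in R-14 and 61.1 in R-16. The low tumors ran from 32.7 to 92.2 CPM, with a log2 fold change of 2.17 (SE 0.61, unadjusted p = 0.00581). *Psmd3*, a subunit of the proteasome, was at 1020 CPM in R-1, 997 in R-7, 571 in R-14 and 187 in R-16, against 122 to 457 in the low tumors. In both genes R-16 lay inside the low range and the other high tumors above it. *Med24*, a subunit of the Mediator complex, was at 399 CPM in R-7, 388 in R-1, 242 in R-14 and 66.7 in R-16, against 62.7 to 158. Its log2 fold change was 1.51 (SE 0.49, unadjusted p = 0.0122). *Thra*, a thyroid hormone receptor, had a log2 fold change of 0.99 (SE 0.44, unadjusted p = 0.0494), and 0.61 without R-1. Without R-7 the log2 fold changes of *Ormdl3*, *Psmd3* and *Med24* were 1.57, 1.29 and 1.27.

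On the other side of *Erbb2* the nearest genes differed less than *Mien1* and *Grb7*. *Pgap3*, which acts on GPI anchors, was at 27.7 CPM in R-7, 23.3 in R-14, 23.2 in R-1 and 20 in R-16, against 6.38 to 21.3 in the low tumors. Here too R-16 alone of the high tumors lay inside the low range (log2 fold change 0.54, SE 0.32, unadjusted p = 0.121 from edgeR). *Stard3*, a cholesterol transporter, was at 35.2 to 49.1 CPM in the high and 27.8 to 41.2 CPM in the low tumors. *Cdk12*, a kinase of the transcription machinery, was at 116 to 118 CPM and 118 to 147 CPM. *Stac2*, farther out, was at 43.2 to 444 CPM in the high and 5.89 to 356 CPM in the low tumors (log2 fold change 1.15, SE 1.03). R-14 was the lowest high tumor in *Stac2* and R-16 the highest. All of these ranges overlapped except that of *Fbxl20*, a ubiquitin ligase component, at 88.3 to 113 CPM in the high and 46.7 to 86.0 CPM in the low tumors (unadjusted p = 0.0284 from edgeR). R-16 was the highest of the high tumors in *Fbxl20*, at 113 CPM.

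**Figure D2:**
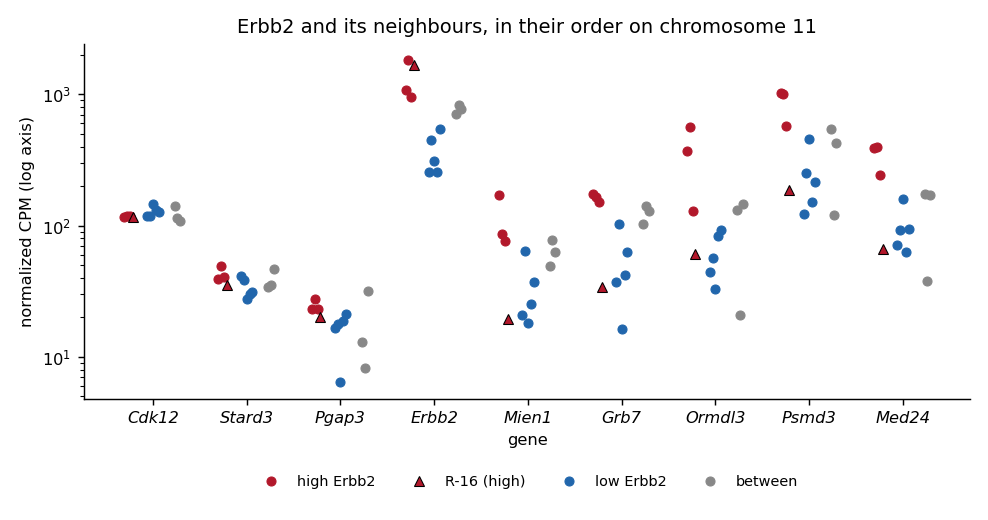
Level of *Erbb2* and 8 of its neighbours in each RhoC tumor, in normalized CPM on a log axis, with genes in their order along the chromosome. Red marks the high, blue the low and grey the tumors between, and the triangle is R-16. In *Mien1*, *Grb7*, *Ormdl3*, *Psmd3* and *Med24* the other 3 high tumors sit above every low tumor and R-16 sits among the low tumors. *Erbb2* itself chose the groups.

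The tumors between the limits were not used to form the groups. *Grb7* was at 140 CPM in R-13, 129 in R-15 and 103 in R-12, each above the highest low tumor. *Ormdl3* was at 146 CPM in R-15 and 131 in R-12 but at 21 in R-13, below every low tumor. Within the mouse that gave both groups, R-7 exceeded R-6 by 2.02 (log2) in *Erbb2*, by 3.31 in *Ormdl3* and by 2.10 in *Med24*, but by only 0.44 in *Mien1* and 0.69 in *Grb7*. Of the 4 tumors of the other mouse, R-14 lay above every low tumor in *Mien1*, *Grb7*, *Ormdl3*, *Psmd3* and *Med24*, R-15 in *Grb7*, *Ormdl3* and *Med24*, R-13 in *Mien1* and *Grb7*, and R-16 in none of these.

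Along chromosome 11, the genes next to *Erbb2* differed by side. Genes other than unnamed models were placed in bins, chosen after values were seen, and each tumor was compared with the median of the low tumors. In the 9 genes from 0 to 250 kb beyond *Erbb2*, the median log2 difference was 2.77 in R-1, 2.22 in R-7, 1.18 in R-14 and -0.19 in R-16. From 250 to 1000 kb, over 16 genes, it was 1.5 in R-1, 0.85 in R-14, -0.46 in R-16 and -0.54 in R-7, with 0.95 in R-15 of the tumors between, and from 5000 to 10000 kb R-1 stood at 1.37 alone, the other high tumors being between -0.49 and 0.14. In the 23 genes within 1000 kb before *Erbb2* it lay between 0.05 and 0.35 in all 4. Of the 9 genes up to 250 kb, 5 had an unadjusted p under 0.05, all higher, where 1.87% of all such genes were higher at that threshold, and the median fitted log2 fold change was 1.84 (1.42 without R-7 and 1.43 without R-1, where 2 and 1 of the 9 had an unadjusted p under 0.05). It was 0.29 with the TEC share of each library as a covariate, where 0 of the 9 had an unadjusted p under 0.05. *Gsdma*, *Gsdma2* and *Gsdma3* are among the 9 and are close paralogs that may share reads.

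Farther along, a block of genes was lower in the high than in the low tumors, and lower in the controls too. Of 96 genes from 2000 to 5000 kb beyond *Erbb2*, 80 had a lower mean, and 24 had an unadjusted p under 0.05, all lower, where 1.94% of all such genes were lower at that threshold. In 7 of the 96 the high tumors lay below every low tumor, against 0.442% of all such genes. The median log2 fold change was -0.56. By tumor the median difference was -0.37 in R-1, -0.67 in R-7 and -0.66 in R-14, but 0.00 in R-16. The tumors between lay at -0.42 (R-15), -0.57 (R-12) and -0.79 (R-13). The 9 controls, on the scale of 21 tumors, lay between -0.56 and -1.45, with N-15, at the lowest *Erbb2* of all, at -0.56. Lower levels were not confined to this block. Of the 12 genes from 1000 to 2000 kb 9 were lower (median -1.16, R-16 at -0.65), and of the 197 from 10000 to 24000 kb 153 were lower (median -0.38, R-16 at 0.13). Neighbouring genes share their place on the chromosome and are not independent of each other. With each tumor left out in turn, the number lower at that threshold was 13 to 28 (13 without R-1 or R-7, 14 without R-14), and the median stayed between -0.77 (without R-16) and -0.38 (without R-21). Without the squamous carcinomas 12 were lower at that threshold (median -0.56), and with the TEC share as a covariate 8 (median -0.59). None of the 96 was called by edgeR in these fits, while DESeq2 called 6.

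Members of this block stood among the genes of smallest p described further on. *Coa3*, an assembly factor of cytochrome c oxidase, was at 21.1 CPM in R-1, 14.8 in R-7, 22.5 in R-14 and 15.7 in R-16. It was at 50.6 in R-2, 52.5 in R-6, 41.8 in R-10, 30.2 in R-18 and 29.6 in R-21, with no overlap. Its log2 fold change was -1.16 (SE 0.25, unadjusted p = 0.0013, adjusted p = 0.416 from edgeR). *Kat2a*, a histone acetyltransferase, was at 40.8 to 65.0 CPM in the high and 75.0 to 153 CPM in the low tumors, a log2 fold change of -0.97 (SE 0.24). *Nt5c3b*, a nucleotidase just short of the block at 1985 kb, was at 10.5 to 15.1 CPM in the high and 19.3 to 32.7 CPM in the low tumors. In all of these the high tumors, R-16 included, lay below the low tumors. *Etv4*, an ETS factor and target of ERK signaling, also lies in the block, 3332 kb from *Erbb2*.

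**Figure D3:**
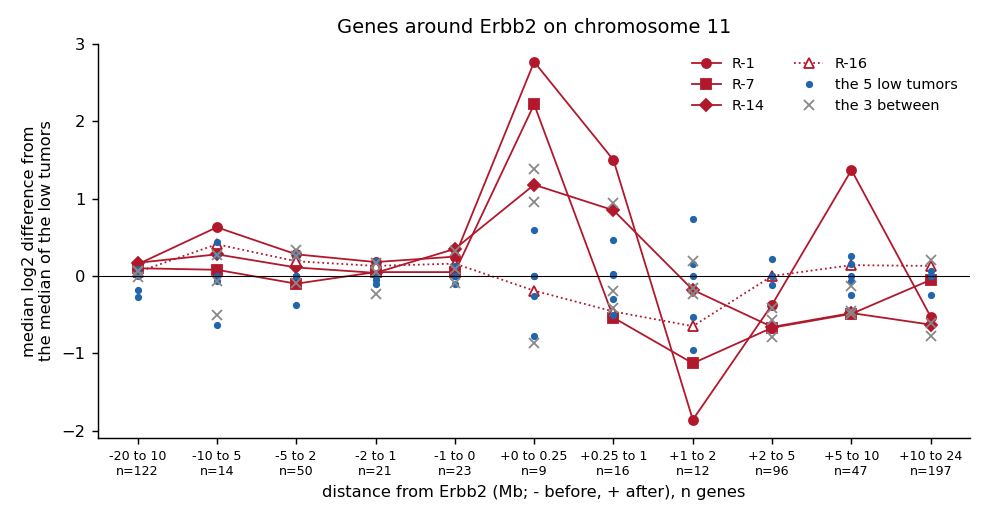
Median log2 difference of each tumor from the median of the low tumors, over the genes of chromosome 11 in bins of distance from *Erbb2* in Mb (minus before, plus after), with the number of genes under each bin. Red lines join the values of each high tumor, dotted for R-16, blue points are the low tumors and grey crosses the tumors between. R-1, R-7 and R-14 lie at 1.18 to 2.77 in the first bin after *Erbb2* and at -0.37 to -0.67 from 2 to 5 Mb, where R-16 is at 0.00.

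The *Erbb2* level of the high tumors overlapped that of the controls, but genes next to it stood lower than in most controls in both the high and the low tumors. On the scale of all 21 tumors, *Erbb2* was at 601 to 2730 CPM in 8 controls and at 58.6 CPM in the control N-15. *Pgap3* was at 370 to 2400 CPM in those 8 controls and 18.6 in N-15, where the high tumors were at 20.5 to 28.8 and the low tumors at 6.41 to 21.4. The ratio of *Grb7* to *Erbb2* CPM was 0.64 to 1.49 in the 9 controls and 0.0201 to 0.227 in the 12 RhoC tumors, with R-16 the lowest. With N-15 in the fit, edgeR called 0 of 22206 genes between the high tumors and controls (0%), with 3536 at an unadjusted p under 0.05. Without it, in a fit chosen after seeing the data, edgeR called 165 of 22201 (0.743%). These held *Pgap3* (log2 fold change -5.34, adjusted p = 0.00175), *Grb7* (-3.46, adjusted p = 0.0286), *Stard3* (-5.06, adjusted p = 0.0385) and *Mien1* (-3.35, adjusted p = 0.043). *Ormdl3* (-1.92, adjusted p = 0.34) and *Psmd3* (-1.43, adjusted p = 0.428) did not pass. The low tumors, set against the same controls, differed in 24 of 22206 genes with N-15 (0.108%) and in 14 of 22201 without it (0.0631%). Without N-15 the low tumors too had lower *Pgap3* (-5.90, adjusted p = 0.000121), *Grb7* (-4.79, adjusted p = 0.000175), *Mien1* (-4.76, adjusted p = 0.00176) and *Stard3* (-5.34, adjusted p = 0.0041) by edgeR.

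The controls gave tumors not used to form the groups, in which genes were fitted against *Erbb2*. Over the 9 controls, 13 of 21845 genes had a slope on log2 *Erbb2* with an adjusted p under 0.05 from edgeR (0.0595%), 3 rising and 10 falling with *Erbb2*. *Mien1* (slope 1.20, SE 0.137, adjusted p = 0.0277) and *Pgap3* (slope 1.18, SE 0.148, adjusted p = 0.0343) were among the 3 that rose. *Grb7* (slope 1.01, adjusted p = 0.0681) and *Ormdl3* (slope 1.08, adjusted p = 0.797) did not pass. *Met*, the receptor of hepatocyte growth factor, fell (slope -1.31, adjusted p = 0.0277), chosen here after its value was seen, while between the RhoC groups its log2 fold change was -0.81 (unadjusted p = 0.385). Without N-15, 0 genes passed, with 967 rising and 793 falling at an unadjusted p under 0.05, and *Mien1* and *Pgap3* had slopes of 1.06 and 1.04 (adjusted p = 0.454 for both). N-15 and N-17 were the only controls without the Gata4(loxP/+) allele, and genotype was not in the fit.

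At an unadjusted p under 0.05, the genes that differed between the RhoC groups had slopes in controls about as often as all genes. Of 1498 genes with an unadjusted p under 0.05 between the high and low tumors that were also tested in controls, 42 had an unadjusted p under 0.05 and the same sign there, and 35 the opposite sign, together 5.14% against 6.21% of all genes tested in controls. In controls 4 of the 1498 passed adjustment, *Mien1* and 3 unnamed models, where 13 of 21845 genes (0.0595%) passed in all. The 3 models all lie on chromosome 6, as *Met* does, so they may not be independent of it or of each other. Without N-15 none of these passed. *Got1*, *Sgk1*, *Coa3* and *Kat2a*, among the genes of smallest p, had control slopes of 0.07, 0.07, -0.16 and -0.61, none of which passed. *Fras1*, higher in the high tumors, had a control slope of the opposite sign, -0.98 (unadjusted p = 0.000179, adjusted p = 0.12). The slope of *Pgf* was 0.77 (unadjusted p = 0.00798, adjusted p = 0.646).

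Among the partners of ErbB2, levels per length were compared with FPKM, which the authors scaled by gene length. *Erbb2* was at 182 to 352 FPKM in the high and 48.8 to 102 FPKM in the low tumors. *Erbb3*, its main partner in mammary cells, was at 88.8 FPKM in R-14, 85.0 in R-7, 68.2 in R-1 and 59.2 in R-16, and in the low tumors between 27.8 (R-10) and 71.1 (R-2). *Egfr* was at 17.5 ± 6.68 and 16.3 ± 7.62 FPKM, and *Erbb4* at 0.279 to 5.38 and 0.00593 to 4.84 FPKM. On this per-length scale *Erbb3* exceeded *Erbb2* in the low tumors R-2 and R-18. *Erbb2* stood above every partner in the low tumors R-6, R-10 and R-21, in the 3 tumors between and in the 4 high tumors. The groups were chosen on *Erbb2*, so its rank beside its partners is largely set by that choice. For *Erbb3* the log2 fold change of the counts was 0.52 (SE 0.31, unadjusted p = 0.123, and 0.34 without the squamous carcinomas), and the ranges overlapped.

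Of the 13 receptors and ligands tested besides *Erbb2*, 9 had a higher and 4 a lower mean in the high tumors, with a median log2 fold change of 0.38. The median was 0.06 without R-2 and 0.67 without R-6, and -0.50 with 8 of 13 lower when the TEC share was a covariate. *Nrg4*, a neuregulin that binds ErbB4, was the one gene with an unadjusted p under 0.05. It was at 3.30 CPM in R-14, 2.58 in R-1, 0.667 in R-16 and 0.645 in R-7, against 0.138 to 0.711 in the low tumors. R-7 and R-16, the tumors with most *Erbb2*, did not exceed the low range, and without the squamous carcinomas the log2 fold change of 1.78 (SE 0.64) was 1.07. *Btc* (betacellulin) was at 9.70 to 24.4 CPM in the high and 1.46 to 19.1 CPM in the low tumors, and *Epgn* (epigen) at 1.11 to 10.4 and 0.132 to 76.9 CPM.

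Feedback regulators and early targets of ERK, which ErbB2 signaling can induce, had a higher mean in the high tumors in 15 of 19 tested, with a median of 0.35. The median was 0.17 without R-2, and 11 of 19 were higher with the TEC share as a covariate. *Dusp6*, a phosphatase that inactivates ERK, was at 1080 CPM in R-1, 995 in R-14, 824 in R-16 and 714 in R-7. In the low tumors it was at 869 in R-21, 550 in R-10, 496 in R-6, 432 in R-2 and 430 in R-18. Of the low tumors only R-21 lay inside the high range, and among the high tumors R-7, with the most *Erbb2*, had the least *Dusp6*. The log2 fold change was 0.70 (SE 0.26, unadjusted p = 0.0266, adjusted p = 0.536 from edgeR), and 0.33 with the TEC covariate. *Ier3*, an immediate early gene, was at 95.9 to 382 CPM in the high and 19.2 to 114 CPM in the low tumors (log2 fold change 1.36, SE 0.53, and 0.83 with that covariate). *Etv4* ran the other way, at 40.0 to 66.5 CPM in the high and 46.2 to 224 CPM in the low tumors (log2 fold change -1.02, SE 0.43, unadjusted p = 0.0393). The fold change of *Etv4* was -0.56 without R-10, its highest tumor, and -0.64 with the TEC covariate.

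The remaining signaling lists were near the background. Of 21 genes of PI3K-AKT signaling and FoxO targets, 13 were higher, with a median of 0.13 (0.04 without R-1 or R-10, and -0.21 with the TEC covariate). *Sesn3*, a sestrin and FoxO target, was at 252 to 386 CPM in the high and 131 to 318 CPM in the low tumors (log2 fold change 0.63, SE 0.27). Of 20 adaptors and trafficking proteins of ErbB receptors, 10 were higher and 10 lower. *Errfi1*, an inhibitor that binds ErbB kinase domains, was at 385 CPM in R-1, 257 in R-16, 175 in R-7 and 154 in R-14, against 111 to 177 CPM in the low tumors. R-7 and R-14 thus fell within the low range, and without R-1 the log2 fold change of 0.79 (SE 0.29) was 0.49.

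*Rhoc* RNA did not separate the groups. Its reads may come from both the endogenous gene and the transgene, which were not measured apart. *Rhoc* was at 101 CPM in R-14, 96.6 in R-16, 83.8 in R-1 and 65.1 in R-7. In the low tumors it was at 94.4 in R-21, 78.0 in R-6, 68.5 in R-18, 64.2 in R-10 and 22.0 in R-2. The highest *Rhoc* of the RhoC tumors lay in those between, at 147 CPM in R-12 and 138 in R-13. The log2 fold change was 0.40 (SE 0.35, unadjusted p = 0.286), within the spread of the tumors, 0.18 without R-2, and -0.25 with the TEC share as a covariate. *Gata4*, a transcription factor whose allele was conditional in part of the controls, was at 1.03 CPM or less in each of the 9 tumors.

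Contractile and other genes linked to serum response factor, which responds to actin assembly, were mixed. The list includes the factor itself and its cofactors besides targets. Of 19 tested, 11 were higher and 8 lower, with a median of 0.14, which ran from -0.08 (without R-16) to 0.51 (without R-10). *Cald1* (caldesmon) did not overlap between groups, at 596 CPM in R-16, 533 in R-1, 457 in R-14 and 402 in R-7 against 134 to 321 CPM (log2 fold change 1.03, SE 0.28, unadjusted p = 0.00446). *Ccn1*, a matricellular protein, was at 53.3 to 90.6 CPM in the high and 22.1 to 54.5 CPM in the low tumors (log2 fold change 1.12, SE 0.27). The smooth muscle gene *Lmod1* was at 3.68 to 34.8 CPM in the high and 1.29 to 11.8 CPM in the low tumors. *Myh11*, smooth muscle myosin, was at 2.42 to 7.15 CPM and 2.11 to 114 CPM. The ranges of both smooth muscle genes overlapped.

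Markers of luminal epithelium, the cell layer from which ErbB2-driven tumors of this kind are taken to arise, were mostly higher. Of 20 tested, 18 had a higher mean in the high tumors, with a median log2 fold change of 0.61. With each tumor left out in turn or another fit, 12 to 19 were higher, and the median ran from 0.33 without R-14 to 0.93 without R-18 among the single tumors. It was 0.37 without the squamous carcinomas and 1.01 with the TEC covariate. *Esr1*, the estrogen receptor, was at 127 CPM in R-14, 62.4 in R-7, 60.3 in R-16 and 26.9 in R-1. Low tumors had 36.5 CPM in R-18, 27.2 in R-6, 26.8 in R-21, 22.0 in R-2 and 11.3 in R-10. R-1 fell inside the low range. The log2 fold change was 1.47 (SE 0.45, unadjusted p = 0.00951) and 1.01 without R-14. *Prom1* was at 172 to 184 CPM in the high and 13.5 to 141 CPM in the low tumors without overlap, and *Cdh1* (E-cadherin) at 652 to 1090 and 503 to 698 CPM. The summed luminal list was at 3970 to 6510 CPM in the high and 1790 to 4530 CPM in the low tumors. In bulk tissue, more cells of a type and more RNA per cell cannot be told apart.

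**Figure D4:**
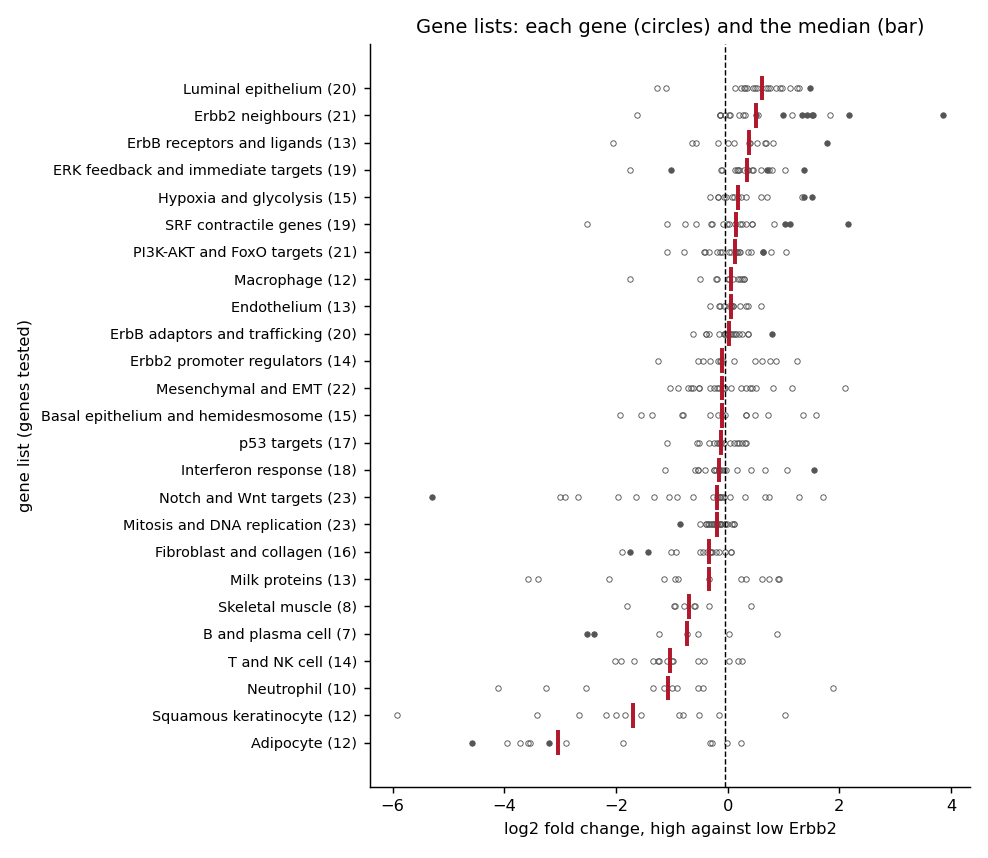
Log2 fold change of high against low tumors for every tested gene of the lists shown (circles, filled where the unadjusted p was under 0.05) and the list's median (red bar), with the number of genes tested in brackets. The dashed line is the median of all genes tested, -0.04. Luminal genes (0.61) and *Erbb2* neighbours (0.51) have the highest medians and adipocyte genes (-3.04) the lowest, and no gene passed adjustment with edgeR.

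Markers of other tissue were lower or spread widely. Adipocyte genes were lower in the high tumors in 11 of 12 tested, with a median of -3.04. This rested on single tumors, being -0.26 without R-10, -1.17 without R-18 and -1.23 without R-2, with 8 genes left to test in each. *Fabp4*, a fatty acid carrier, was at 3.32 CPM in R-1, 3.13 in R-7, 1.83 in R-16 and 0.674 in R-14, and in the low tumors at 65.7 in R-6, 18.6 in R-10, 6.89 in R-18, 5.60 in R-21 and 5.23 in R-2. The groups did not overlap in *Fabp4* (log2 fold change -3.19, SE 0.94, unadjusted p = 0.00752), and the fold change was -2.04 without R-6 and -1.73 without the squamous carcinomas. DESeq2 gave an adjusted p of 0.0173. *Adipoq* (adiponectin), a defining marker, was at 0 to 0.479 CPM in the high and 0.0147 to 6.15 CPM in the low tumors, and the summed list at 89.3 to 129 and 90.3 to 335 CPM. R-10 had the most of both. With the TEC share as a covariate the list's median was 3.94, while *Fabp4* was at -4.30 in that fit.

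Fibroblast and collagen genes were lower in 14 of 16 tested, with a median of -0.34. Without R-10 it was 8 higher and 8 lower with a median of -0.02, without R-1 the median was -0.13, and with the TEC covariate 12 were higher with a median of 0.32. *Dcn* (decorin) was at 10.3 to 24.8 CPM in the high and 11.6 to 177 CPM in the low tumors (log2 fold change -1.76, SE 0.73), and *Lum* (lumican) at 8.04 to 24.6 and 16.6 to 108 CPM (log2 fold change -1.42, SE 0.60). R-10 was the highest tumor for both, and without it the values were -0.76 and -0.74. The immunoglobulin genes *Jchain* (log2 fold change -2.51, SE 0.99) and *Igkc* (-2.39, SE 0.97) had higher means in the low tumors, with ranges that overlapped, and *Jchain* was at -1.56 without R-2. With the TEC share of each library as a covariate, the values were 0.59 for *Dcn*, 0.12 for *Lum*, 0.79 for *Jchain* and 0.10 for *Igkc*, so none of these kept its direction.

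Squamous keratinocyte genes were lower in 11 of 12 tested (median -1.69), and summed to 3870 CPM in R-14, while the summed list reached 18100 CPM in R-6 against 17.4 to 765 CPM in the other low tumors. Without R-6 the median was 2.33, and without R-14 it was -5.02. Neutrophil genes behaved likewise, with a median of -1.07 that was 1.13 without R-6. Of 14 T and NK cell genes 11 were lower (median -1.04), but 7 were higher and 7 lower without R-2, and 11 higher with the TEC covariate (median 0.67). Of 7 B and plasma cell genes 5 were lower (median -0.72, but -0.40 without R-1, -1.19 with the tumors of 1 mouse summed, -0.05 with voom and 0.10 with that covariate). Macrophage genes (median 0.06 over 12), endothelial genes (0.06 over 13), basal and hemidesmosome genes (-0.11 over 15), mesenchymal genes (-0.11 over 22), milk protein genes (-0.34 over 13) and skeletal muscle genes (-0.69 over 8) had no member with an unadjusted p under 0.05. The median of each turned with single tumors. Milk protein genes were at -4.10 without R-7 and 3.21 without R-18, skeletal muscle genes at -4.15 without R-1 and 3.83 without R-10, and basal genes at -1.92 without R-14 and 1.24 without R-6. Mesenchymal genes were at 0.39 without R-6, endothelial genes at 0.42 without R-10 and -0.08 without R-6 or R-16, and macrophage genes at 0.31 without R-10 and -0.13 without R-16 or R-18. Skeletal muscle genes summed to 2550 CPM in R-10 and 912 CPM in R-1, against at most 212 CPM in the other tumors of both groups.

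Genes of mitosis and DNA replication were slightly lower. Of 23 tested, 20 had a lower mean in the high tumors, with a median of -0.19, but the median was 0.12 without R-10, with 17 of 23 then higher, and 0.25 with the TEC share as a covariate. *Foxm1*, a transcription factor of the G2 and M phases, was at 29.0 CPM in R-16, 28.0 in R-14, 23.7 in R-1 and 15.7 in R-7. In the low tumors it was at 49.3 in R-10, 46.2 in R-2, 42.6 in R-6, 40.3 in R-18 and 37.5 in R-21. The groups did not overlap, and the log2 fold change was -0.85 (SE 0.21, unadjusted p = 0.00289, adjusted p = 0.416 from edgeR). *Mcm4*, a subunit of the replicative helicase, was at 46.5 to 68.8 CPM and 50.4 to 113 CPM.

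Among named genes with a mean log2 CPM over 0, those of smallest p that were higher in the high tumors were *Got1*, *Triqk*, *Sgk1*, *Pgf*, *Lysmd2* and *Fras1*. *Got1*, the cytosolic aspartate aminotransferase, was at 57.1 CPM in R-7, 56.0 in R-16, 53.5 in R-1 and 25.2 in R-14. Low tumors had 20 CPM in R-21, 18.4 in R-10, 15.1 in R-2, 14 in R-6 and 10.4 in R-18. All high tumors lay above all low tumors, R-14 only just. The log2 fold change was 1.61 (SE 0.29, unadjusted p = 0.000316, adjusted p = 0.416 from edgeR), and it stayed between 1.5 and 1.83 with another tool or scaling, with the TEC covariate and with each tumor left out. Within the mouse that gave a tumor to each group, *Got1* in R-7 exceeded that in R-6 by 2.02 (log2).

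*Sgk1*, a kinase activated downstream of PI3K, was at 284 CPM in R-7, 252 in R-14, 181 in R-1 and 165 in R-16 against 75.0 to 134 CPM in the low tumors, again without overlap. *Pgf*, a growth factor of the VEGF family, was at 125 CPM in R-16, 83.2 in R-1, 40.6 in R-7 and 25.7 in R-14 against 10.9 to 26.2 CPM. R-14 fell inside the low range, and the tumors between reached 207 CPM in R-12. *Fras1*, a protein of the epithelial basement membrane, was at 41.9 CPM in R-1, 37.3 in R-7, 33.1 in R-16 and 3.70 in R-14 against 0.888 to 5.66 CPM in the low tumors. The log2 fold changes were 1.08 (SE 0.23) for *Sgk1*, 2.11 (SE 0.46) for *Pgf* and 3.28 (SE 0.77) for *Fras1*. *Triqk* (1.87, SE 0.38) and *Lysmd2* (1.13, SE 0.26) did not overlap between the groups.

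Under the same limit on level, the genes of smallest p that were lower were *Crispld1*, *Nt5c3b*, *Coa3*, *Kat2a*, *Foxm1* and *Ftx*. *Crispld1*, which encodes a secreted CAP-domain protein, was at 0.298 to 0.707 CPM in the high and 1.69 to 8.40 CPM in the low tumors (log2 fold change -2.91, SE 0.60, unadjusted p = 0.000845). *Ftx*, a noncoding RNA of the X inactivation center, was at 5.19 to 8.95 CPM in the high and 11.7 to 17.8 CPM in the low tumors. Neither gene overlapped between the groups, as also held for the other 4 described above. None of the 12 genes of smallest p passed adjustment with edgeR, while DESeq2 gave each an adjusted p under 0.05, from 0.000521 (*Crispld1*) to 0.0309 (*Foxm1*).

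**Figure D5:**
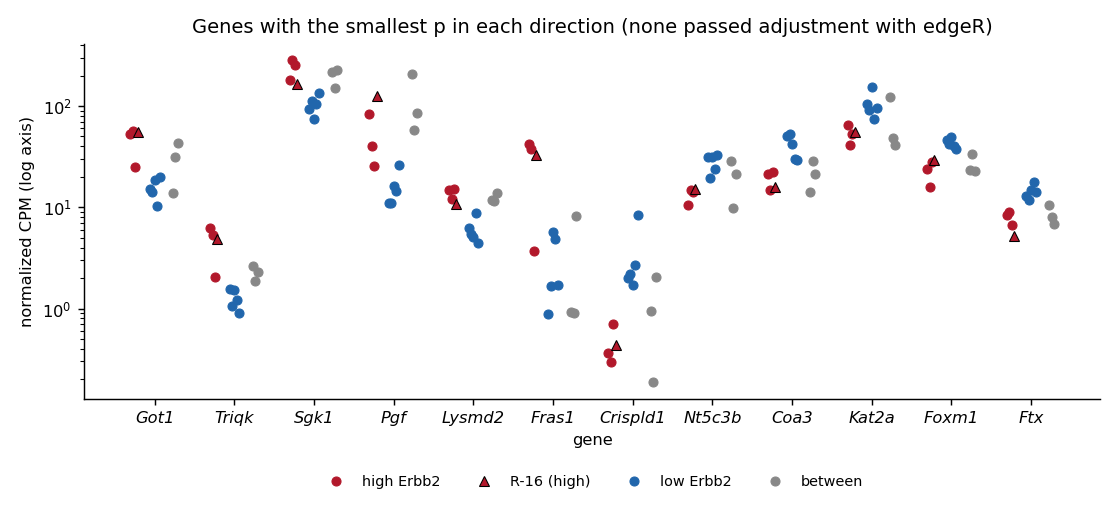
Level in every RhoC tumor of the 12 genes of smallest p with a mean log2 CPM over 0, 6 higher and 6 lower, none called by edgeR, in normalized CPM on a log axis. Red marks the high, blue the low and grey the tumors between, and the triangle is R-16. The groups are separate in 10 of the 12 genes, *Pgf* and *Fras1* being the others.

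Single genes of 3 further lists stood out from lists that were near the background. Of 15 genes of hypoxia and glycolysis, 10 were higher, with a median of 0.19 (0.03 without R-2, 0.75 without R-6, and -0.42 with the TEC covariate). *Car9*, carbonic anhydrase 9, was at 8.98 to 27.3 CPM in the high and 3.30 to 11.8 CPM in the low tumors (log2 fold change 1.36, SE 0.46). *Adm* (adrenomedullin) was at 8.85 to 53.8 and 4.65 to 16.9 CPM (1.51, SE 0.55, 0.91 without R-14 and 0.96 with that covariate). Both hypoxia genes overlapped between the groups. *Rsad2*, an antiviral gene, was at 57.3 CPM in R-14, 27.6 in R-16, 22.9 in R-7 and 20.7 in R-1 against 3.52 to 15.4 CPM in the low tumors, although 13 of 18 interferon response genes were lower (median -0.16, from -0.64 without R-14 to 0.17 without R-2). The list of Notch and Wnt targets also holds Notch receptors, Notch ligands and Wnt ligands. Of its 23 genes tested, 17 were lower (median -0.19, from -0.99 without R-14 to 0.13 without R-6). *Nkd1*, a Wnt feedback gene, was at 292 CPM in R-10 and at 1.64 to 9.59 CPM in the other low tumors, against 0.888 to 2.48 CPM in the high tumors. Its log2 fold change of -5.29 (SE 1.86) was -1.33 without R-10 and -0.09 with the TEC covariate. *Axin2*, another Wnt feedback gene, had ranges that overlapped and a log2 fold change of -2.67 (SE 1.20, unadjusted p = 0.0521 from edgeR), which was -4.15 without R-14. Of 17 p53 target genes, 7 were higher and 10 lower (median -0.12, from -0.24 without R-21 to 0.11 without R-6).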

How the data were processed

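Tumor RNA was sequenced from stranded, ribosome-depleted libraries, 1 per tumor. Per the submitters' processing notes, the tools used include FastQC 0.11.5, Trim Galore 0.5.0, STAR 2.6.0c and HTSeq 0.6.1p2, with build GRCm38.p6. The strand setting of the counting was not given in the sources used here. The authors deposited read counts per gene for each tumor and FPKM values, which the authors scaled by gene length and depth. FPKM served only to compare the ErbB receptors with each other. Fold changes and p-values of the authors' own comparisons, in 2 tables, were not used. The counts list 49652 genes, of which 48533 were named from a reference table and 680 more from the authors' table.

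Counts were analysed in R 4.3.3 with edgeR 4.0.16 (TMM normalization, its default low-count filter on the 9 tumors, quasi-likelihood test, Benjamini-Hochberg adjustment over all tested genes, threshold 0.05). *Erbb2* was left out of the test because it chose the groups. CPM of single tumors use TMM factors over the 12 RhoC tumors, or over all 21 where controls are given. Fitted fold changes are on the log2 scale, and fitted mean levels used a prior count of 2. Single library measures were compared by 2-sided exact permutation. In the 9 controls the slope on log2 *Erbb2* was fitted in the same way. DESeq2 1.42.0 and limma 3.58.1 (voom, mouse as a random effect, estimated correlation 0.025) were alternatives, as were library size scaling, no low-count filter, leaving out each tumor or the squamous carcinomas, summing the tumors of 1 mouse, all 21 tumors in 4 groups and a slope over the 12 RhoC tumors. A covariate for TEC share, a set without gene models, mouse as a fixed block, and the comparisons of high and of low tumors with controls were chosen after seeing the data. The scripts were tested on simulated data.

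The groups and gene lists were chosen with earlier results of these data known. A further gene list is not reported here. Named genes were those of the engineered alleles, the neighbours of *Erbb2*, the 6 genes of smallest p in each direction among those with a mean log2 CPM over 0 (models left out), given as not called by edgeR, and up to 4 of smallest p in each list. *Met*, *Egfr*, *Erbb4*, *Gsdma2* and *Gsdma3* were named outside this rule. The labels do not say whether tumors of a group were processed together, and tumors that share a mouse are not independent samples, so p-values measure the spread between these tumors. Total counts were 47309780 to 85326903 per RhoC tumor, so counting error is small except for genes of a few reads.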

Additional observations from a re-analysis of the deposited data

Results flagged for a closer look

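In 14 of 129 groups of values checked, the highest or lowest tumor stood apart from the others by more than the 95% limit of Dixon's gap test. Chance flags about 1 in 20 groups, and the genes are not independent. In the high tumors these were *Grb7* in R-16 (33.8 CPM, the lowest), *Got1* in R-14 (25.2 CPM, the lowest) and *Fras1* in R-14 (3.70 CPM, the lowest). In the low tumors, R-2 was lowest in *Rhoc* (22.0 CPM) and *Ier3* (19.2 CPM), R-10 was lowest in *Fbxl20* (46.7 CPM) and *Rsad2* (3.52 CPM), R-6 was lowest in *Nrg4* (0.138 CPM), and R-21 was highest in *Crispld1* (8.40 CPM). In the controls, on the scale of 21 tumors, N-15 was lowest in *Erbb2* (58.6 CPM), *Mien1* (17.1 CPM) and *Grb7* (42.7 CPM), N-3 was lowest in *Got1* (4.56 CPM), and N-9 was highest in *Kat2a* (984 CPM).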

How the results depend on the processing

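edgeR called 0 genes between the high and low tumors in every other edgeR fit and with voom, also without each tumor in turn (0 to 0), whereas DESeq2 called 395 genes. DESeq2 was fitted to 35358 genes with a count but adjusted only over those that its own filter kept. Its share of genes called thus cannot be set beside that of edgeR. At an unadjusted p under 0.05 the split was 222 higher and 1298 lower with library size scaling, and 552 and 715 with the TEC share as a covariate. Of 738 recomputed fold changes of 41 named genes, 733 kept their direction and 15 passed an adjusted p of 0.05, all with DESeq2. Most of the 41 were picked for a small p in these same tumors. Keeping their direction was thus nearly set by that choice and is no support for them, and other genes named above were not recomputed. With the TEC covariate 5 reversed, giving -0.25 for *Rhoc*, 0.59 for *Dcn*, 0.12 for *Lum*, 0.79 for *Jchain* and 0.10 for *Igkc*, and the cause was not tested. For the *Erbb2* slope in controls, DESeq2 called 187 genes, 39 were called with no low-count filter, 0 apart from N-15, and 0 to 8 without each control in turn (0 also without N-1). The log2 difference in total count was 0.206 without R-1 to 0.393 without R-14, and its p stayed under the threshold only without R-21. The high and low tumors share no replicate numbers, and 1 mouse gave a tumor to both groups. With mouse as a replicate block (7 mice, 1 residual degree of freedom, all of the contrast from R-7 and R-6) edgeR called 0 genes, with 1196 higher and 879 lower at an unadjusted p under 0.05. Depth limits mainly genes of few reads, such as *Adipoq*, *Jchain* and *Nrg4*.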
